A study of Mus musculus with 3 samples.

Results

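The 9 genes described here belong to the MHC class I pathway of the mouse: H2-K1, H2-D1, B2m, Tap1, Nlrc5, H2-Q1, H2-Q2, H2-Q10 and H2-T3. They were taken by symbol from the gene lists deposited with the data, and all 9 were found among 31053 genes. The data are single-cell RNA sequencing of the small intestine, with 1 library each from duodenum, jejunum and ileum. Each library holds pooled cells of 3 male wild-type C57BL/6N mice aged 12 weeks, sorted as live by exclusion of propidium iodide. The fraction sorted was detached epithelium with the immune cells that lie within it. The mice of the study were kept on normal chow. No treatment or transgene is stated for these libraries, and the suffix CD in their titles is not explained in the sources used here. Because the mice were pooled, no library shows variation between animals, and segment cannot be told apart from library.

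MHC class I molecules sit on the cell surface and show short peptides from inside the cell to CD8 T cells and natural killer cells. A heavy chain, such as the classical H2-K1 and H2-D1 products, pairs with the light chain beta-2-microglobulin from B2m and is loaded with peptides that the TAP transporter, of which Tap1 is a subunit, moves into the endoplasmic reticulum. Nlrc5 is a transactivator of class I genes. H2-Q1, H2-Q2, H2-Q10 and H2-T3 are nonclassical heavy chain genes. The H2-Q10 product is known as a secreted form made by the liver, and the H2-T3 product is the thymus leukemia antigen, which intestinal epithelium carries and CD8 alpha homodimers bind.

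H2-K1, H2-D1, H2-Q2, H2-Q10, H2-T3 and B2m had a match to the core of an interferon-response element, TTTCNNTT, within the RefSeq promoter sequences of GRCm38.p6, which run from 250 bases before to 50 after the start. Sequences were found for 7 of the 9 genes, and H2-Q1 and Nlrc5 had none. The stretches around the match are shown because the genes that hold it differ in their course along the villus, described after them. All are read 5′ to 3′ on the strand of the gene, and capitals mark matches to any of 3 motifs: TTTCNNTT, the NF-kB element GGGATTCCC and the Y box ATTGG. Both strands were searched, and positions count from the RefSeq start.
H2-K1, chr17:34000388-34000477, minus strand: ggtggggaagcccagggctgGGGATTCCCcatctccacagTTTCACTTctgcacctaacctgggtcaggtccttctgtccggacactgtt
H2-Q10, chr17:35469894-35469983, plus strand: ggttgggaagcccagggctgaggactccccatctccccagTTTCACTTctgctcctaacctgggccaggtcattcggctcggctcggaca
B2m, chr2:122147510-122147599, plus strand: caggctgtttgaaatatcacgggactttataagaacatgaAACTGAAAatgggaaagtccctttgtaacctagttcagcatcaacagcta
H2-D1, chr17:35262923-35262952, plus strand: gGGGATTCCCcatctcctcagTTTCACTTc
H2-Q2, chr17:35342200-35342229, plus strand: ggaattatctggcaggtctcaTTTCCATTG
H2-T3, chr17:36190269-36190298, minus strand: ttgggctgtacagaactatagTTTCACTTt

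H2-K1 and H2-D1 carried the NF-kB element, which 0.370% of the 27025 promoters held, and 20 bases further on the interferon-response core, which 24.2% held. Over 90 bases set on the interferon-response match, H2-K1 and H2-D1 were the same at 86, H2-K1 and H2-Q10 at 72, and H2-K1 and H2-T3 at 33. H2-Q10 had the interferon-response match at -155 and no match to the NF-kB letters. In B2m the match at -137 lay on the other strand. In H2-Q2 the match at -86 overlapped a Y box, whose last base lies outside the printed stretch. Tap1 had no match to the interferon-response or NF-kB letters, and 1 match to the Y box, found in 37.9% of promoters, at -222. Outside the printed stretches the Y box also matched in H2-K1 at -16 and 9, in H2-D1 at -76 and -53 and in B2m at -53. H2-Q10 and H2-T3 had no Y box match. GENCODE M21 starts the H2-D1 gene further upstream, so that all 30 printed bases lie in an untranslated region of its annotation, as do 19 of those of H2-T3. These matches are descriptions of letters and not of bound sites.

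Each of the 9 genes has a position in GENCODE M21 on GRCm38, and 7 lie on chromosome 17. There, H2-K1 (ENSMUSG00000061232) spans 33996017 to 34000347 on the minus strand and Tap1 (ENSMUSG00000037321) spans 34187553 to 34197225 on the plus strand. H2-D1 (ENSMUSG00000073411) spans 35262730 to 35267499, H2-Q1 (ENSMUSG00000079507) 35320405 to 35325099, H2-Q2 (ENSMUSG00000091705) 35342242 to 35346762 and H2-Q10 (ENSMUSG00000067235) 35470089 to 35474563, all on the plus strand. H2-T3 (ENSMUSG00000054128) spans 36185572 to 36190287 on the minus strand. B2m (ENSMUSG00000060802) lies on chromosome 2 from 122147686 to 122153083 and Nlrc5 (ENSMUSG00000074151) on chromosome 8 from 94434356 to 94527272. The heavy chain genes have near-identical copies, so how many of their reads were counted, and for which gene, is uncertain.

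The libraries held 98518847, 87656078 and 78074516 unique molecular identifiers (UMIs) in duodenum, jejunum and ileum. The study's limits on UMIs, genes and mitochondrial UMIs left 4255, 4360 and 8071 cells, which is 44.8%, 53.6% and 84.1% of the barcodes. The ileal library stood apart, with a median of 5536 UMIs a kept cell against 12424 and 11737, and 11.1% mitochondrial UMIs against 27.1% and 27.2%. Pairs of libraries shared 20 to 28 barcodes, of which 4 to 12 were kept cells in both. Clusters were named from fixed marker lists, without the class I genes in the clustering. This gave 10635 enterocytes, 1155 early enterocytes, 749 goblet, 300 tuft, 171 enteroendocrine and 183 intestinal stem or proliferating (ISC/proliferating) cells, 1231 T cells, 611 B cells and 87 IgA B cells. A further 24 Paneth cells, 25 dendritic cells and 26 macrophages/monocytes were too few for a test, and 1489 cells stayed unnamed. The T cells came mostly from the ileum, with 34, 108 and 1089 in the 3 segments.

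A level is the number of UMIs of a gene in every 10000 UMIs, mitochondrial ones included. It comes from the pooled counts of all cells that a class has in a library. Intervals are exact 95% Poisson intervals and cover counting error only. Differences between classes are log2 fold changes ± SE from edgeR's quasi-likelihood test on these sums, with the library as a block, TMM scaling and Benjamini-Hochberg adjustment over 12592 genes. A call is an adjusted p under 0.05. TMM rescales a class by the bulk of its genes, so that a fitted fold can differ from the ratio of the levels. The median fold change over all genes was -0.17 to -0.28 in the class comparisons, and without TMM it was -0.07 to 0.79. The replicates are 3 segments of the same pooled mice, and the block takes out overall differences between them. The p-values thus measure how differences between groups of cells vary between segments, and not between animals.

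Among the 9 classes with a sum in every library, H2-K1 was highest in enterocytes and T cells. Its level in enterocytes was 24.6 in duodenum, 36.8 in jejunum and 30.4 in ileum, and in T cells 30.5, 27.3 and 26.7. These groups overlapped. The lowest levels, 3.29, 4.85 and 4.07, were in ISC/proliferating cells, which did not overlap with any other class. Early enterocytes, on their way from crypt to villus, stood at 7.399, 9.44 and 7.14. The fitted difference from enterocytes was -3.91 ± 0.23 in ISC/proliferating cells (edgeR adjusted p = 1.07e-12) and -2.39 ± 0.22 in early enterocytes (edgeR adjusted p = 6.61e-09). H2-K1 in T cells was called lower, at -1.15 ± 0.21 (edgeR adjusted p = 3.26e-05), and this call was lost without TMM, where the difference was -0.10.

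H2-D1, the other classical heavy chain gene, was highest in tuft cells, the chemosensory cells of the epithelium. Its level there was 27.2, 22.8 and 22.2 in duodenum, jejunum and ileum. T cells followed at 16.5, 19.8 and 19.9, and enterocytes at 9.05, 10.4 and 12.8, with no overlap among these 3 classes. Goblet cells, at 6.05, 5.96 and 5.75, varied least between segments. The fitted difference between tuft cells and enterocytes was 0.37 ± 0.20, which did not pass the test (edgeR adjusted p = 0.126). It passed with DESeq2 size factors, at 0.80, without TMM, at 1.19, and without the ileum, at 0.83. Without epithelial cells that held a UMI of Cd3e, Cd3d, Cd3g, Trac, Cd79a or Ptprc it was -0.47, beside a median of -0.70 over all genes in that setting. That setting removed 226 of the 300 tuft cells, in which Ptprc made up 3.42 of the summed level of 3.81 of these markers. For T cells H2-D1 gave -0.23 ± 0.20 (edgeR adjusted p = 0.322), and 0.81 without TMM, where it was called higher. In goblet cells, B cells, enteroendocrine cells, early enterocytes and ISC/proliferating cells H2-D1 was lower, by -1.02, -1.26, -1.95, -1.68 and -2.96. The goblet call was lost without the ileum, at -0.65, and the B cell call without TMM, at -0.21.

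B2m, the light chain gene, was highest in enterocytes at 27.3, 24.8 and 17.8. T cells stood at 17.9, 18.9 and 15.8 and IgA B cells at 15.3, 12.2 and 13.0. On the scale of all UMIs, the enterocyte and T cell levels overlapped through the ileum. ISC/proliferating cells, at 3.90, 4.55 and 4.12, and enteroendocrine cells, at 4.86, 4.87 and 2.99, were lowest and overlapped. B2m was called lower than in enterocytes in all 7 classes tested, from -1.42 ± 0.22 in T cells to -3.45 ± 0.24 in enteroendocrine cells. The T cell call was lost without TMM, where the difference was -0.38.

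Tap1, the transporter subunit, was highest in T cells, at 0.856, 1.03 and 0.911, and in B cells, at 0.553, 0.808 and 0.836. These ranges did not overlap, but the counting intervals of the 2 classes did. Enterocytes held 0.426, 0.352 and 0.206, which overlapped with early enterocytes at 0.350, 0.408 and 0.264. The 25 dendritic cells, which specialise in presenting antigen, reached 2.10 over all libraries (117 UMIs, interval 1.74 to 2.52), and the 24 Paneth cells held 0 UMIs. Tap1 was higher in T cells than in enterocytes by 0.54 ± 0.23 (edgeR adjusted p = 0.0478). That call was lost without the jejunum, at 0.60, and without the ileum, at 0.54. In B cells the difference of 0.33 did not pass (edgeR adjusted p = 0.27), and it passed without the duodenum, at 0.70, with DESeq2 size factors, at 0.83, and without TMM, at 1.32. Goblet cells, enteroendocrine cells and ISC/proliferating cells were lower, by -1.07, -2.78 and -1.94. In tuft cells the call, at -0.79, was lost without any 1 of the 3 libraries (-0.56 to -0.71) and with DESeq2 size factors (-0.36), and without TMM the difference was 0.0035.

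Nlrc5 was highest in T cells and was detected through few molecules. T cells held 8, 28 and 183 UMIs in duodenum, jejunum and ileum, which is 0.428, 0.471 and 0.342 per 10000. The far more numerous enterocytes held 70, 27 and 28, or 0.0175, 0.0062 and 0.0085. The groups did not overlap, and the fitted difference was 4.40 ± 0.50 (edgeR adjusted p = 2.6e-08). B cells held 2, 1 and 16 UMIs, and their call of 1.77 ± 0.64 (edgeR adjusted p = 0.0192) was lost without the jejunum, at 1.64, and without the ileum, at 2.42. Nlrc5 was called lower in early enterocytes, at -2.59, from 5, 0 and 1 UMIs in the 3 libraries. In ISC/proliferating cells it had 1 UMI in all, so that the fitted -2.91 depends on the prior count. That call was lost without the duodenum, at -1.85, and without the jejunum, at -2.74.

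H2-Q1 and H2-Q2 were highest in enterocytes, with early enterocytes next. The H2-Q2 level in enterocytes was 14.1, 11.6 and 6.53, above every other class and with no overlap with early enterocytes at 5.06, 5.14 and 1.43. H2-Q1 stood at 3.29, 2.03 and 1.03 in enterocytes and at 1.47, 1.14 and 0.186 in early enterocytes, which overlapped. Both genes were called lower than in enterocytes in all 7 classes, H2-Q1 by -1.89 ± 0.32 to -5.90 ± 0.44 and H2-Q2 by -2.03 ± 0.30 to -5.25 ± 0.36. At the lower end of both ranges stood ISC/proliferating cells, at the upper end early enterocytes. Enteroendocrine cells, which make gut hormones, kept an H2-Q2 level of 3.81, 2.996 and 2.30.

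In droplet data, free RNA can give UMIs in cells that do not express a gene. The level of enterocyte RNA in other classes was read from enterocyte markers, whose summed level in T cells was 12.9% of that in enterocytes. In enteroendocrine cells it was 12.3%, in tuft cells 16.7%, in goblet cells 9.75% and in ISC/proliferating cells 4.57%. Each library was scaled by its own share, which in T cells was 27.4%, 8.52% and 12.2% from duodenum to ileum, and the scaled value was set against the measured level and its counting interval. For H2-Q1 in T cells the levels of 1.12, 0.185 and 0.137 stood slightly above the scaled 0.901, 0.173 and 0.127, which lay within the counting intervals in all 3 libraries. In no other class outside the absorptive line did the H2-Q1 interval lie above the scaled value in any library. For H2-Q2 in T cells the levels were 4.34, 1.13 and 0.951 against a scaled 3.85, 0.987 and 0.798, with the counting interval above the scaled value in the ileum alone. In enteroendocrine cells H2-Q2 was above it in all 3 libraries (3.81, 2.996 and 2.30 against 2.19, 1.59 and 0.676). H2-T3 in T cells was 0.696, 0.101 and 0.189 against a scaled 0.495, 0.0958 and 0.134, again with the interval above it in the ileum alone. In ISC/proliferating cells H2-T3 was above it in all 3 libraries (0.634, 0.473 and 0.376 against 0.137, 0.0461 and 0.0299). H2-K1, H2-D1 and B2m were above it in every class and library, except B2m in jejunal Paneth cells. Only enterocyte RNA was scaled in this way. The summed level of T cell markers was 0.0422, 11.3 and 16.1 in ISC/proliferating cells from duodenum to ileum. It was 1.77, 0.204 and 5.34 in enteroendocrine cells and 229, 287 and 206 in T cells. The part of T cell RNA in the class I levels of these epithelial cells was not tested directly.

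H2-Q10 had few UMIs outside the jejunum. Enterocytes held 1219, 5009 and 264 UMIs of it, or 0.305, 1.15 and 0.0801 per 10000. T cells stood at 0.482, 0.235 and 0.211, so that the classes overlapped, and goblet cells at 0.0604, 0.223 and 0.0454. It was called lower in T cells, at -1.38 ± 0.52 (edgeR adjusted p = 0.0237), and the call rested on the jejunum: without it the difference was -0.16. The B cell call of -2.10 was lost without the jejunum, at -1.39. The early enterocyte call of -1.58 was lost without the jejunum, at -0.66, and without the duodenum, at -1.48.

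H2-T3 had its highest levels in early enterocytes and enterocytes, which overlapped. Early enterocytes held 1.69, 1.67 and 1.44 and enterocytes 1.81, 1.13 and 1.10, and the fitted difference of -0.13 ± 0.24 did not pass (edgeR adjusted p = 0.689). ISC/proliferating cells came next, at 0.634, 0.473 and 0.376. H2-T3 was lower than in enterocytes in ISC/proliferating cells by -2.43 ± 0.27 (edgeR adjusted p = 1.32e-08), the smallest difference of any of the 4 nonclassical genes in that class. T cells, the carriers of its receptor, were at 0.696, 0.101 and 0.189 and were called lower by -3.41 ± 0.30 (edgeR adjusted p = 4.82e-10).

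The order of the classes by mean level over the 3 libraries (± SD, n = 3) began for H2-K1 with enterocytes at 30.6 ± 6.08, T cells at 28.2 ± 2.02, tuft cells at 17.0 ± 3.04, B cells at 13.4 ± 2.32 and goblet cells at 12.4 ± 2.32. Early enterocytes (7.99 ± 1.26), IgA B cells (7.99 ± 0.8996) and enteroendocrine cells (7.58 ± 1.45) followed, and ISC/proliferating cells came last at 4.07 ± 0.777. Neighbours in this order overlapped except T and tuft cells, goblet cells and early enterocytes, and enteroendocrine and ISC/proliferating cells. For H2-D1 the order was tuft cells (24.1 ± 2.72), T cells (18.8 ± 1.92), enterocytes (10.7 ± 1.90), B cells (9.28 ± 1.39), goblet cells (5.92 ± 0.152), enteroendocrine cells (5.51 ± 0.684), early enterocytes (4.52 ± 0.212), IgA B cells (4.37 ± 1.21) and ISC/proliferating cells (2.75 ± 0.569). Of its neighbours only enterocytes and B cells, goblet and enteroendocrine cells, and early enterocytes and IgA B cells overlapped.

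For B2m, enterocytes (23.3 ± 4.93) and T cells (17.5 ± 1.55) overlapped, IgA B cells (13.5 ± 1.62) stood alone, and B cells (9.40 ± 2.43), early enterocytes (9.02 ± 1.44), tuft cells (8.78 ± 1.82), goblet cells (5.90 ± 2.21), enteroendocrine cells (4.24 ± 1.08) and ISC/proliferating cells (4.19 ± 0.331) each overlapped with the next. For Tap1, T cells (0.931 ± 0.0861) and B cells (0.732 ± 0.156) stood apart from the rest. IgA B cells (0.348 ± 0.0635), early enterocytes (0.341 ± 0.0724), enterocytes (0.328 ± 0.112) and tuft cells (0.324 ± 0.0859) overlapped in turn, and enteroendocrine cells were lowest at 0.0862 ± 0.0244. Nlrc5 in T cells (0.414 ± 0.0653) and in B cells (0.0881 ± 0.0446) did not overlap with each other. H2-Q2 in enterocytes (10.7 ± 3.84) did not overlap with early enterocytes (3.87 ± 2.12), and H2-Q1 (2.12 ± 1.13 and 0.934 ± 0.669), H2-Q10 (0.512 ± 0.565 in enterocytes, 0.309 ± 0.150 in T cells) and H2-T3 (1.60 ± 0.137 in early enterocytes, 1.34 ± 0.404 in enterocytes) overlapped between their 2 highest classes.

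**Figure D1:**
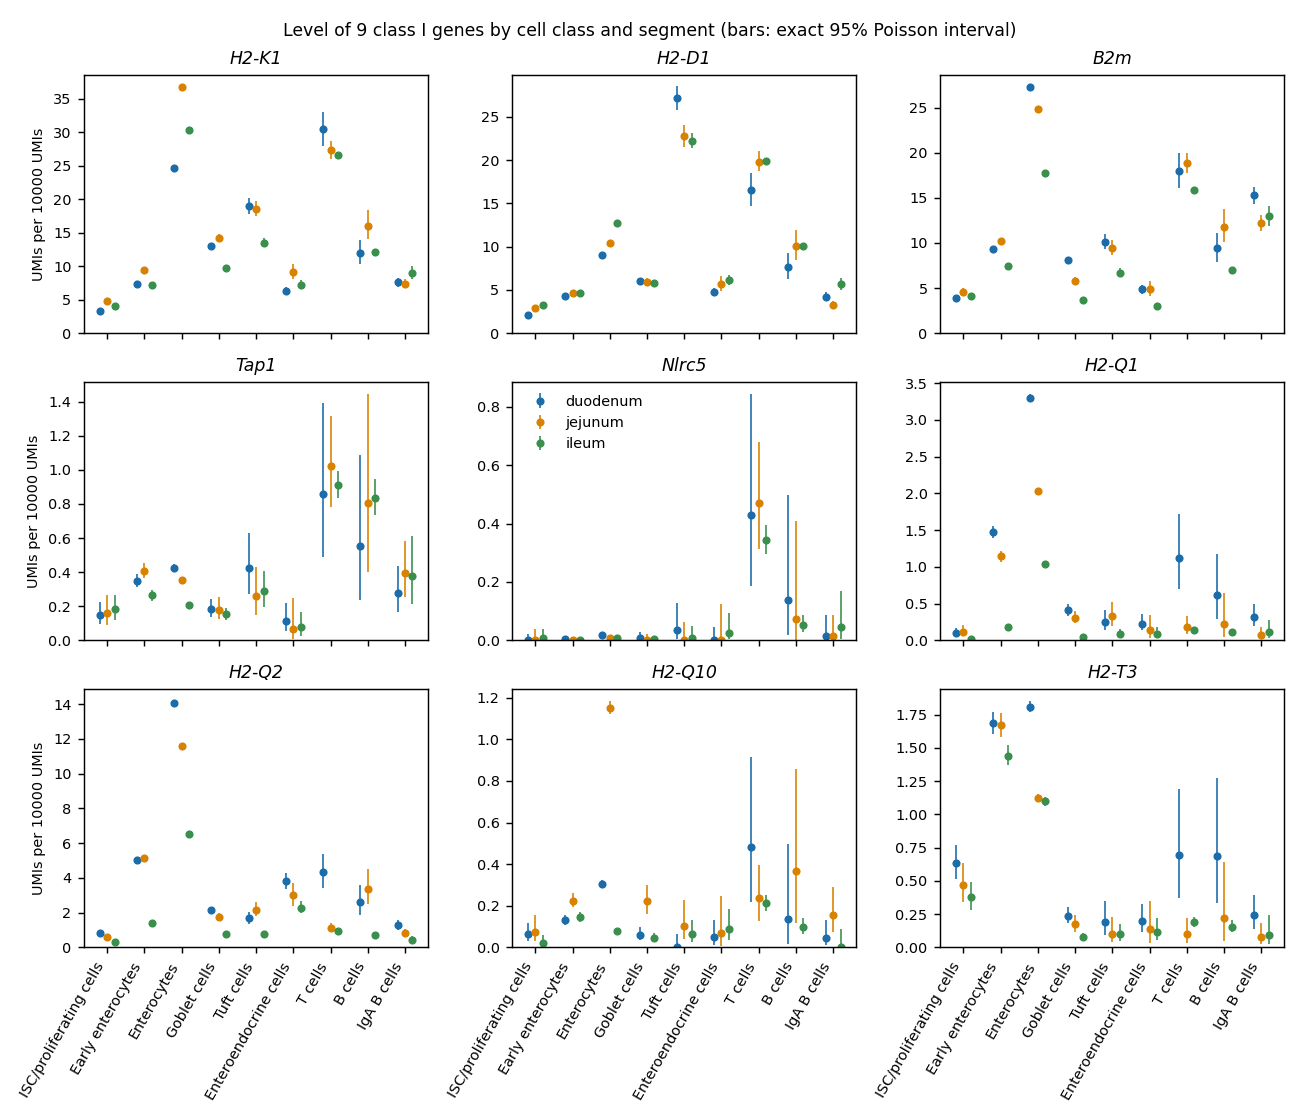
UMIs per 10000 UMIs (vertical axis) of each of the 9 genes in the 9 classes with a sum in every library (horizontal axis), 1 point per library, with exact 95% Poisson intervals as bars. H2-K1, B2m, H2-Q1, H2-Q2 and H2-Q10 were highest in enterocytes over the mean of the libraries, H2-D1 in tuft cells (22.2 to 27.2), Tap1 and Nlrc5 in T cells and H2-T3 in early enterocytes.

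Most of the 9 genes were called lower than in enterocytes in the other epithelial classes. In ISC/proliferating cells all 9 were called lower, with a median of -3.43 beside -0.22 over all genes, of which 35.6% were called lower and 29.1% higher. In enteroendocrine cells 8 were lower, with a median of -3.01 (all genes -0.17; 29.9% lower, 25.7% higher). In goblet cells 8 were lower, with a median of -2.18 (all genes -0.23; 26.1% lower, 15.7% higher). In tuft cells 7 were lower, with a median of -2.21 (all genes -0.27; 28.9% lower, 20.4% higher), and in early enterocytes 7, with a median of -1.80 (all genes -0.23; 25.6% lower, 17.4% higher). With TMM scaling no gene of the 9 was called higher in these 5 classes. With DESeq2 size factors the number called in either direction was 8, 8, 8, 7 and 7 in the same order, with H2-D1 higher in tuft cells.

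In T cells 2 of the 9 were called higher, Nlrc5 and Tap1, and 6 lower, with a median of -1.38 (all genes -0.24; 28.2% higher, 35.3% lower). In B cells Nlrc5 was called higher and 7 lower, with a median of -2.25 (all genes -0.28; 27.7% higher, 35.4% lower). With DESeq2 size factors all 9 were called in B cells, with Tap1 higher as well. The share of higher calls among all calls moved with scaling. In T cells it was 44.5% with TMM, 55.2% with DESeq2 size factors and 70.2% without TMM, and over the 7 comparisons it was 37.5 to 46.2%, 51.6 to 62.7% and 46.7 to 77.8%.

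Further genes of the pathway were counted from lists: 15 other class I heavy chains, of which 13 were found, 12 genes of peptide supply and loading, 9 regulators, 15 interferon-response genes and 9 receptors of class I. Some of the other heavy chains had higher levels in T cells than in enterocytes. H2-Q7, which encodes Qa-2, stood at 6.05, 6.18 and 6.47 in T cells and at 0.0162, 0.0191 and 0.0467 in enterocytes, a fitted difference of 6.92. H2-Q6 differed by 5.31 and H2-M3, which presents formylated peptides, by 5.20. Of 11 other heavy chains tested 6 were higher and 4 lower in T cells, with a median of 1.00. Over all genes 28.2% were called higher and 35.3% lower in T cells. The 4 lower ones were H2-T23, Fcgrt, Hfe and H2-M2, and H2-T23 was not called without TMM.

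Of the 12 peptide supply and loading genes in T cells 6 were called higher and 3 lower, with a median of 0.18 that was 0.59 with DESeq2 size factors (6 higher, 1 lower) and 1.21 without TMM (8 higher, 0 lower). The immunoproteasome subunits Psmb8 and Psmb9 were higher by 1.29 and 1.47, and Tap2, the partner of Tap1, by 0.74. Of 14 interferon-response genes tested 5 were higher and 6 lower, with a median of -0.95 (0.09 without TMM). The shares over all genes were 28.2% higher and 35.3% lower. Of 9 regulators 1 was higher and 2 lower, with a median of -0.39 (0.64 without TMM). Of 9 receptors 8 were higher, with a median of 7.99. Among the receptors, Cd8a was also a marker used to name the T cells. In ISC/proliferating cells 10 of 14 interferon-response genes were lower and none higher, with a median of -3.85 (-2.90 without TMM, 9 lower and 2 higher). Over all genes 35.6% were called lower in these cells and 29.1% higher. There, 6 of 12 peptide supply and loading genes were lower and 1 higher, with a median of -0.45. With DESeq2 size factors 3 were higher and 4 lower, with a median of 0.020, and without TMM 6 were higher and 2 lower, with a median of 0.53.

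In early enterocytes 10 of the 14 interferon-response genes were lower and 1 higher, with a median of -2.21, and 4 of the 12 peptide supply and loading genes were higher and 2 lower, with a median of 0.34. The counts of higher and lower interferon-response genes were 2 and 7 in goblet cells, 1 and 4 in tuft cells, 0 and 11 in enteroendocrine cells and 1 and 7 in B cells. For peptide supply and loading they were 1 and 2, 0 and 7, 1 and 8, and 2 and 5 in the same order. Over all genes the shares called higher and lower were 17.4% and 25.6% in early enterocytes and 15.7% and 26.1% in goblet cells. They were 20.4% and 28.9% in tuft cells, 25.7% and 29.9% in enteroendocrine cells and 27.7% and 35.4% in B cells. The counts of the lists moved with scaling. Without TMM the interferon-response counts were 2 and 6 in goblet cells, 2 and 1 in tuft cells, 0 and 7 in enteroendocrine cells and 5 and 5 in B cells, where the median of -0.58 became 0.40. In tuft cells the median of -0.76 became 0.048. Those of peptide supply and loading were 2 and 0, 3 and 0, 4 and 3, and 6 and 1 without TMM, and with DESeq2 size factors 2 and 0, 0 and 4, 3 and 6, and 4 and 5.

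Absorptive cells are renewed from the crypt and change their programme as they move up the villus. The 11790 enterocytes and early enterocytes were ordered within each library by a score of 8 landmark genes of the villus tip and 10 of the bottom, and divided into 5 zones of equal size, with zone 1 at the bottom and zone 5 at the tip. Of these cells 13.9% lay within 0.05 SD of a zone boundary. Genes held out from the score moved as the zones are named: their tip level was 9.37 in zone 1 and 19.2 in zone 5, and their bottom level was 40.1 and 2.04. Of the 40.1, Reg1 made up 38.2, with 108, 7.01 and 0.0296 in duodenum, jejunum and ileum. By library the bottom level was 111, 8.08 and 1.03 in zone 1 and 6.30, 0.224 and 0.202 in zone 5. Pcna moved little, from 0.202 to 0.147, and ileal Fos fell from 8.57 in zone 3 to 5.82 in zone 5. In 3 of the landmarks the duodenal enterocytes had no UMI. The landmarks were left out of the test, which covered 11108 genes.

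H2-K1 rose from bottom to tip in every segment. In the duodenum its level in zones 1 to 5 was 11.4, 19.2, 23.6, 30.4 and 32.5, in the jejunum 15.7, 32.9, 41.4, 42.5 and 41.5, and in the ileum 9.35, 21.02, 29.7, 37.1 and 41.7. Zone 1 was the lowest of the 5 in each library, and the jejunum reached its plateau by zone 3. Zone 5 was higher than zone 1 by 2.28 ± 0.20 (edgeR adjusted p = 7.3e-07). The raw ratio of the 2 levels was 2.86, 2.65 and 4.46.

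H2-D1 climbed along all 5 zones in each segment. Its level was 5.75, 7.90, 8.71, 10.1 and 10.7 in duodenum, 6.08, 9.45, 10.7, 11.4 and 12.2 in jejunum, and 5.51, 9.26, 12.3, 14.9 and 17.3 in ileum. On the scale of all UMIs, the segments were close in zone 1, and the ileum was above both others in zones 3 to 5. In zone 3 the median mitochondrial share was 30.2% in duodenum, 30.1% in jejunum and 13.7% in ileum. The part of that share in this order was not tested. The fitted difference between zones 5 and 1 was 1.78 ± 0.19 (edgeR adjusted p = 3.42e-06). H2-K1 and H2-D1 were also called higher in zone 3 than in zone 1, by 1.52 and 1.00, and in zone 5 than in zone 3, by 0.77 and 0.78. Without the jejunum the calls between zones 5 and 3 were lost, at 0.89 and 0.83, as they were without TMM, at 0.32 and 0.33.

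B2m rose early and then turned. It was 14.7, 24.1, 27.4, 32.4 and 28.5 in duodenum, 16.1, 27.3, 28.1, 25.6 and 19.0 in jejunum, and 9.42, 16.8, 19.1, 18.8 and 18.5 in ileum. Zone 5 was above zone 1 in all 3 libraries, by 1.33 ± 0.15 (edgeR adjusted p = 8.19e-06), and zone 3 above zone 1 by 1.06. Between zones 5 and 3 the difference of 0.27 did not pass (edgeR adjusted p = 0.176).

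H2-Q2 followed B2m in shape in duodenum and jejunum, while in the ileum it was highest in zone 5 and B2m in zone 3. Its zones 1 to 5 held 7.92, 13.0, 14.1, 15.7 and 14.5 in duodenum, 7.90, 12.4, 12.4, 11.9 and 9.68 in jejunum, and 2.25, 5.62, 7.14, 6.89 and 7.70 in ileum. Zone 5 was higher than zone 1 by 1.56 ± 0.22 (edgeR adjusted p = 4.59e-05). H2-Q1 was called higher by 1.06 ± 0.23 (edgeR adjusted p = 0.00116), although its level in the jejunum was 1.70 in zone 1 and 1.57 in zone 5, with overlapping intervals. In the duodenum it was 2.12 and 2.60 and in the ileum 0.375 and 0.968. The H2-Q1 call was lost without TMM, at 0.46, and with enterocytes alone, at 0.30.

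Tap1 and H2-T3 went the other way. Tap1 was 0.418, 0.464, 0.462, 0.416 and 0.239 from zone 1 to zone 5 of the duodenum, 0.501, 0.493, 0.358, 0.214 and 0.112 of the jejunum, and 0.299, 0.269, 0.253, 0.139 and 0.0746 of the ileum. H2-T3 was 1.82, 2.04, 1.97, 1.90 and 0.918 in duodenum, 1.77, 1.59, 1.17, 0.729 and 0.300 in jejunum, and 1.60, 1.68, 1.28, 0.731 and 0.276 in ileum. For both, zone 5 was the lowest in every library, and the duodenum stayed level up to zone 4. Between zones 5 and 1 Tap1 fell by -1.03 ± 0.19 (edgeR adjusted p = 0.000425) and H2-T3 by -1.40 ± 0.23 (edgeR adjusted p = 0.000145). Between zones 5 and 3 the differences were -0.98 and -1.28, both called, and between zones 3 and 1 they were -0.05 and -0.13, not called. The Tap1 call between zones 5 and 3 was lost without the jejunum, at -0.91.

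**Figure D2:**
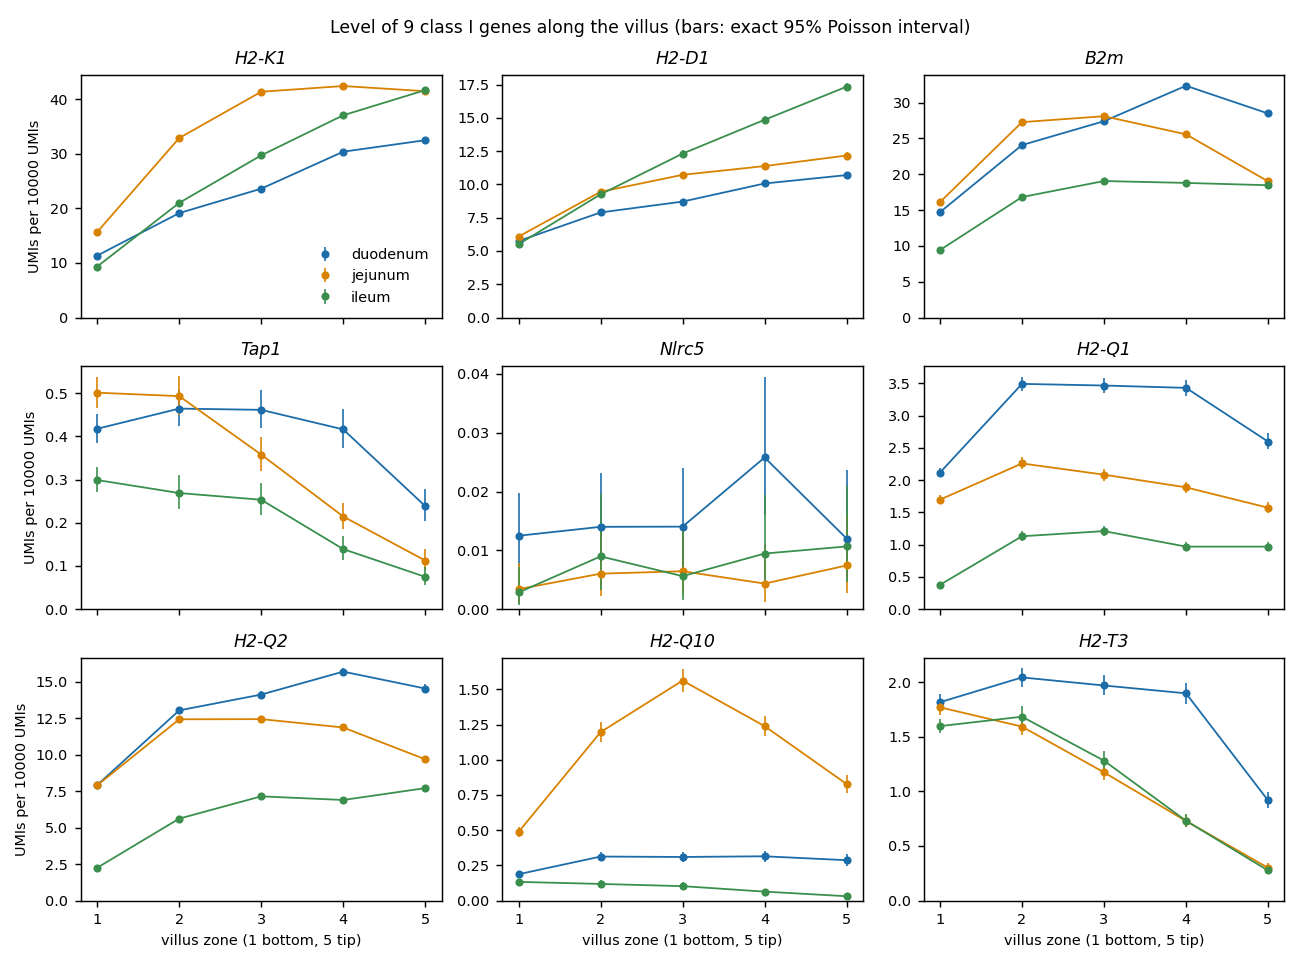
UMIs per 10000 UMIs (vertical axis) of the 9 genes in villus zones 1 (bottom) to 5 (tip) (horizontal axis), 1 line per segment, with exact 95% Poisson intervals as bars. H2-K1 and H2-D1 reach their highest levels in zones 4 and 5, B2m and H2-Q2 flatten or turn, and Tap1 and H2-T3 are lowest in zone 5, at 0.0746 to 0.239 and 0.276 to 0.918.

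H2-Q10 took a different course in each segment. In the jejunum it was 0.488, 1.196, 1.56, 1.24 and 0.828 from zone 1 to zone 5, and in the duodenum 0.187, 0.312, 0.310, 0.314 and 0.287. In the ileum it was 0.133, 0.118, 0.102, 0.0634 and 0.0306, with 188 UMIs in zone 1 and 23 in zone 5. The pooled difference of 0.47 ± 0.40 did not pass (edgeR adjusted p = 0.303), and without the ileum it was 1.24 and was called. Nlrc5 had 4 to 21 UMIs in each zone of each library, and the intervals of zones 1 and 5 overlapped in all 3. Its call of 1.37 ± 0.45 (edgeR adjusted p = 0.0153) was lost without the jejunum, at 1.195, without the ileum, at 0.91, without TMM, at 0.83, and with enterocytes alone, at 0.08.

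Between zones 5 and 1, then, 6 of the 9 genes were called higher and 2 lower, with a median of 1.33 beside -0.09 over all genes, of which 33.6% were higher and 37.2% lower. Between zones 3 and 1, 5 were higher and 0 lower, with a median of 0.99 (all genes 0.02; 23.3% higher, 24.7% lower). Between zones 5 and 3, 2 were higher and 2 lower, with a median of 0.27 (all genes -0.06; 20.3% higher, 19.1% lower). These last comparisons were chosen after the levels by zone were seen. Without TMM the median over all genes was -0.69 for zone 5 against zone 1, and the share of higher calls was 25.8% against 47.5% with TMM. The calls of H2-K1, H2-D1, B2m and H2-Q2 were kept on that scale, at 1.69, 1.18, 0.73 and 0.96, and those of Tap1 and H2-T3 at -1.64 and -2.01.

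Depth, mitochondrial share and lymphocyte RNA moved along the zones. The median UMIs of a cell were 18813 in zone 1 and 8402 in zone 5 of the duodenum, 20076 and 10800.5 in the jejunum, and 13108 and 7311.5 in the ileum. The mitochondrial share was 23.5% and 28.8%, 25.4% and 25.9%, and 16.3% and 8.06%. The summed level of 6 lymphocyte markers (Cd3e, Cd3d, Cd3g, Trac, Cd79a and Ptprc) was 0.0104 and 0.0975, 0.0135 and 0.0556, and 0.179 and 0.261. In zone 5 each of the 6 had a UMI in each library, except Cd79a in the jejunum. Their part in the differences was not tested directly. The fit was rerun at no more than 20% mitochondrial UMIs, without cells that held a UMI of these markers, and thinned. With each cell thinned to 800 UMIs, 7 of the 8 genes that could be tested were called, against 8 of 9 without thinning.

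The peptide supply and loading genes as a list fell toward the tip while the classical heavy chains rose. Of 12 tested 9 were lower and 1 higher in zone 5, with a median of -1.07, and on the scale without TMM 11 were lower and 0 higher, with a median of -1.67. Over all genes 37.2% were called lower and 33.6% higher with TMM, also the shares to set beside the lists that follow. The endoplasmic reticulum chaperone Canx was 3.15 in zone 1 and 0.341 in zone 5 over all libraries, a fitted difference of -2.43. Psmb9 was 0.894 and 0.317 in duodenum, 0.698 and 0.0655 in jejunum and 0.438 and 0.0586 in ileum, with -1.96 in the fit. Pdia3 (-1.34), the trimming peptidase Erap1 (-1.26), the proteasome activator subunits Psme1 (-1.14) and Psme2 (-0.73), Calr (-1.07), Psmb10 (-1.06) and Psmb8 (-0.71) were lower too. Tap2, at -0.26, and Tapbpl, at -0.03, were not called, and both were called lower without TMM. Tapbp, which encodes the tapasin that bridges TAP and the heavy chain, was called higher at 0.58 ± 0.17 (edgeR adjusted p = 0.0083). That call was absent without TMM, at -0.02, and its raw level was 1.69 in zone 1 and 1.65 in zone 5.

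The interferon-response genes divided. Of 13 tested 8 were higher and 3 lower in zone 5, with a median of 1.27. The count was the same with DESeq2 size factors, and 7 and 4 without TMM. Irf7, a transcription factor of the type I interferon response, was 0.853 and 2.52 in zones 1 and 5 of the duodenum, 0.871 and 2.72 in the jejunum, and 0.558 and 4.35 in the ileum. Its fitted difference was 2.61. Oasl2 (2.26), Isg15 (2.05), Rsad2 (1.63), Irf9 (1.61), Stat2 (1.32), Ifit1 (1.27) and Ifi47 (1.26) were higher as well, and Ifit1 was not called without TMM. The 3 lower genes were Bst2, the tetherin gene, at -1.80, and the interferon-inducible GTPase genes Irgm1 and Igtp, at -1.55 and -1.41.

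Among 9 regulators 5 were higher and 2 lower in zone 5, with a median of 0.85 (0.24 without TMM, 2 higher and 4 lower). Rfxank, a subunit of the RFX complex that binds class I and class II promoters, was higher by 1.46, and Irf2 by 1.32, on either scale. Irf1 (1.10), Nfyb (0.94) and Nfya (0.85) were not called without TMM, and the raw level of Irf1 in the jejunum was 0.894 in zone 1 and 0.794 in zone 5. Rfx5, another RFX subunit, was lower by -2.19 and Ciita, the class II transactivator, by -3.05. Of 9 other heavy chains tested, H2-Q4 (1.32) and H2-T23 (1.15), the gene of Qa-1, were higher, and H2-M3 (-1.42) and Hfe (-2.33) lower, with a median of 0.00. Of 4 receptors tested Cd8a (2.09) and Klrd1 (1.33) were higher, at levels of 0.00737 and 0.0175 for Cd8a in zones 1 and 5 over all libraries.

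**Figure D3:**
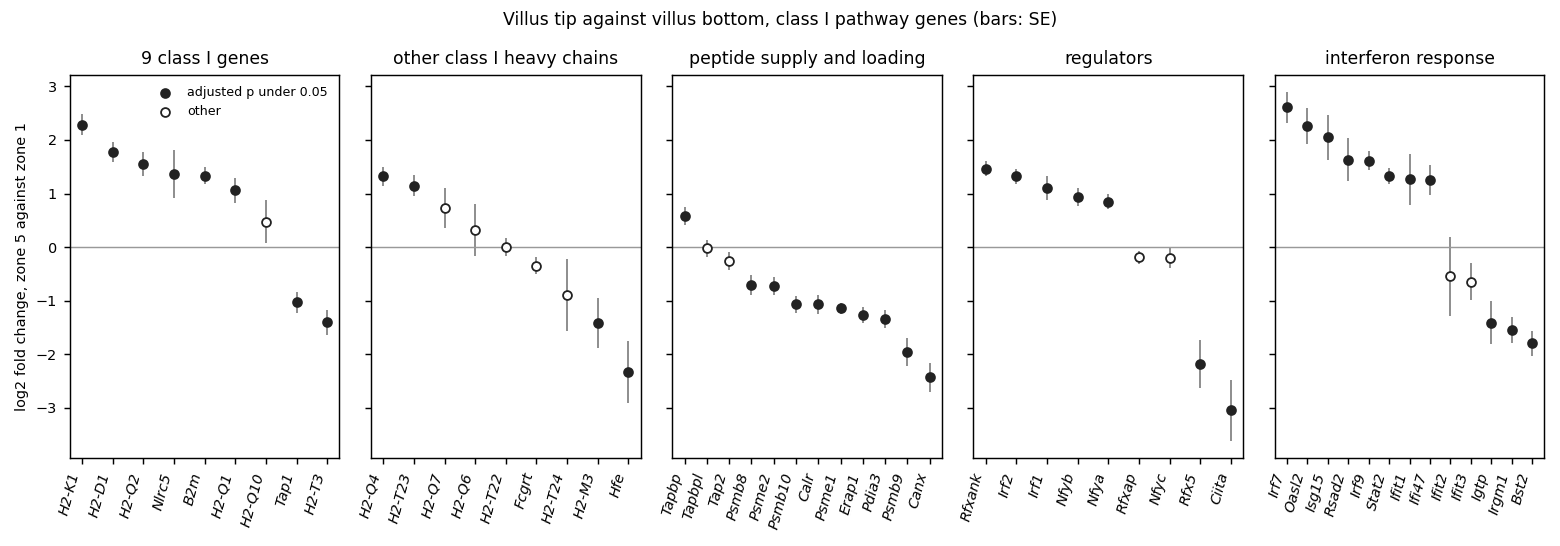
Fitted log2 fold change of zone 5 against zone 1 (vertical axis) with SE as bars, for the 9 genes and 4 lists of the pathway (horizontal axis, ordered by size within a panel). Filled points passed an adjusted p of 0.05. H2-K1 (2.28) and Irf7 (2.61) stand at the top and Canx (-2.43) and Ciita (-3.05) at the bottom of their panels.

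Between segments, H2-Q10 had the widest range in enterocytes. Its level was 14.4 times as high in the jejunum as in the ileum, and 27.0 times in zone 5. With 1 library a segment there is no test, and the intervals cover counting only. H2-Q1 and H2-Q2 were highest in the duodenum and lowest in the ileum, with ratios of 3.18 and 2.15, followed by Tap1 at 2.06, H2-T3 at 1.65 and B2m at 1.53. H2-K1 was highest in the jejunum (1.49 times the duodenum) and H2-D1 in the ileum (1.41 times the duodenum). Over all enterocytes, 6 of the 9 genes were thus lowest in the ileum, and H2-K1 and H2-D1 were not among them, which for H2-K1 and H2-T3 did not hold cluster by cluster. The share of all genes lowest in the ileum was not computed, so that the count cannot be set beside it. Per non-mitochondrial UMI the H2-K1 level was 33.9, 50.4 and 35.3, the H2-D1 level 12.5, 14.23 and 14.8, and the H2-Q10 level 0.420, 1.58 and 0.0929. Nlrc5 was lowest in the jejunum with 27 UMIs.

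The order of the segments held across clusters of absorptive cells for some genes and not for others. Of 9 clusters, 2 of them early enterocytes, H2-Q1 was highest in the duodenum and lowest in the ileum in 9. H2-Q2 was highest in the duodenum in 8 and lowest in the ileum in 9, and H2-D1 was highest in the ileum in 7 and lowest in the duodenum in 6. H2-K1 was highest in the jejunum in 8, but lowest in the ileum in 6 and in the duodenum in 3. H2-T3 was highest in the duodenum in 8, but lowest in the jejunum in 5 and in the ileum in 4. Tap1 was lowest in the ileum in 9 and highest in the duodenum in 5 and the jejunum in 4, and B2m was lowest in the ileum in 8 and highest in the duodenum in 6. H2-Q10 was highest in the jejunum in 7, with its peak in a cluster led by Pck1, a gene of gluconeogenesis, among whose leading genes it stands itself. There it was 0.542 in duodenum, 2.35 in jejunum and 0.128 in ileum.

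**Figure D4:**
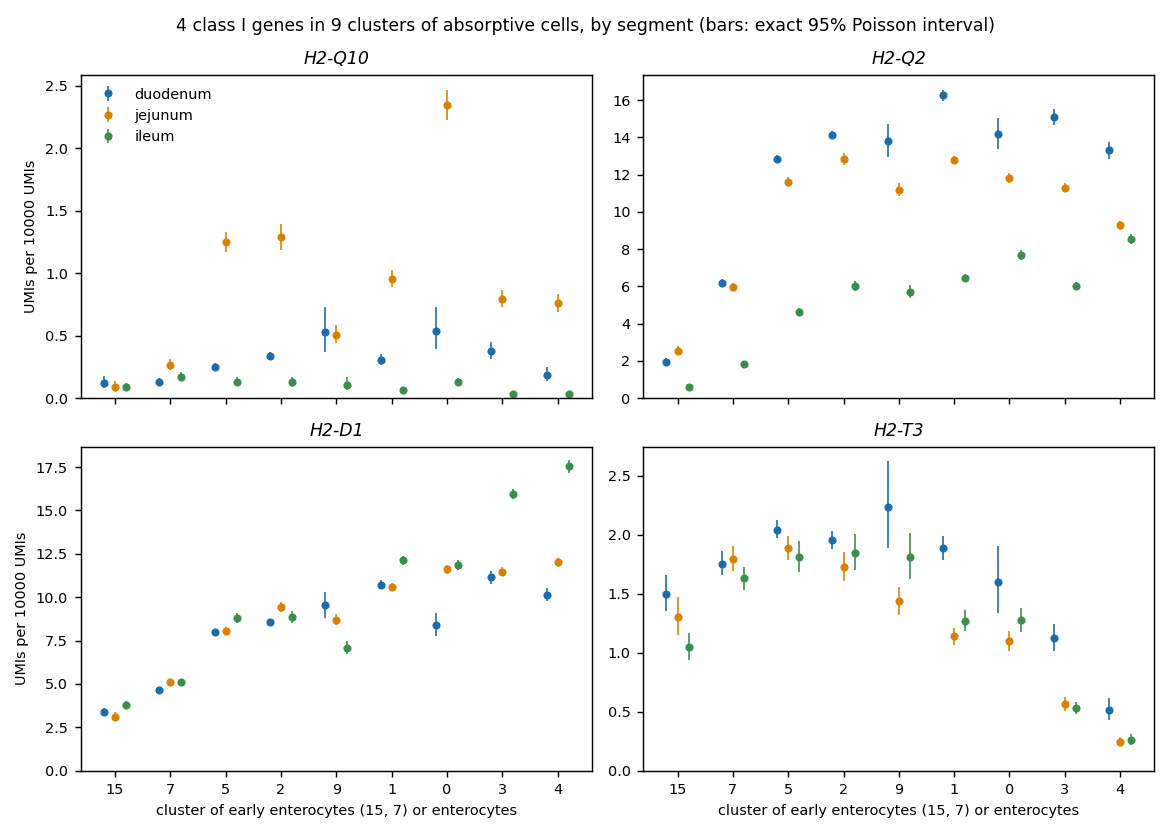
UMIs per 10000 UMIs (vertical axis) of H2-Q10, H2-Q2, H2-D1 and H2-T3 in 9 clusters of absorptive cells (horizontal axis; 15 and 7 are early enterocytes), 1 point per segment with exact 95% Poisson intervals as bars. The jejunal point of H2-Q10 in cluster 0 stands at 2.35, and the ileal points of H2-D1 lie above the others in 7 of the clusters.

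The 9 genes paired with different partners when their pattern was followed over the 30 class sums, by Pearson's r of log2 values scaled to library size. Tap1 was most like Tap2 (0.95), Snx20 (0.95) and Psmb8 (0.94), and B2m was most like H2-K1 (0.85) and near Tapbp (0.83). H2-Q2 was most like Cyp2d26 (0.98), Gda (0.95) and Xdh (0.94), and H2-Q1 like Treh (0.96), Apoc3 (0.94) and Mttp (0.94), which are genes of absorption and lipid export among others. H2-T3 was most like Sult1b1 (0.93), Mgam (0.92) and Dab1 (0.92). H2-K1 and H2-D1 were most like Ptpre, at 0.86 and 0.89, and Nlrc5 like Ppp1r18 (0.88). H2-Q10 had the weakest best match, Nek9 at 0.79.

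Over the 15 zone sums, H2-K1 and H2-D1 were alike at 0.95, H2-Q2 and B2m at 0.96, H2-Q2 and H2-Q1 at 0.94, and H2-T3 and Tap1 at 0.89. H2-T3 and H2-D1 were opposed at -0.81. The genes most like each were Jmjd1c for H2-K1 (0.99), Apaf1 for H2-D1 (0.99), Xdh for B2m (0.98) and H2-Q2 (0.99), Plekhf1 for Tap1 (0.98), Cyp3a11 for H2-Q1 (0.99), Slc6a3 for H2-Q10 (0.96) and Fermt1 for H2-T3 (0.98). The points share 3 libraries and their depth, and these correlations are descriptions over sums, with no test.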

How the data were processed

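Cells of 3 mice were pooled for each of 3 libraries (10x Genomics 3′ v3 kit). The authors' deposited values are raw UMI counts per gene and cell, in 1 matrix per segment, made with Cell Ranger 3.0.2. The submitters' processing notes name GRCm38 and mm10. The study's limits were applied to the barcodes, namely 800 to 50000 UMIs, 200 to 6000 genes and a mitochondrial share of no more than 40%. Cells were integrated and clustered in Seurat 5.3.0 (R 4.3.3; 2000 variable genes without the 9 genes and their lists, 30 components, resolution 0.8). Mixed clusters were split again at resolution 0.5, chosen after they were seen. Clusters were named from 12 marker lists, which may differ from the study's names, and no doublet caller was run. UMIs were summed per library and class or zone with at least 10 cells and tested in edgeR 4.0.16 (quasi-likelihood, filterByExpr, TMM, library as block), and levels were computed in Python 3.11.15 with scipy 1.17.1. DESeq2 1.42.0, other scalings, filters, groupings and each library left out were alternatives. The fit was tested on simulated counts, where TMM shifted unchanged genes downward and gave more false calls than DESeq2 size factors in the B, tuft, enteroendocrine and ISC/proliferating fits. Numbers of calls in these classes are therefore also given with DESeq2 size factors. GENCODE M21 held 30934 of the 31053 gene identifiers (99.6%). Promoter sequences came from RefSeq. The genes named are the 9, the lists (other class I heavy chains, peptide supply and loading, regulators, interferon response, class I receptors) and, for each of the 9, the most similar genes by Pearson's r. The 9 genes and all lists were chosen with earlier results of these data known. H2-T10 and Cd1d2 of the lists had no row, and 1 listed regulator is not reported here. Segments had 1 library each and were not tested. Counting limits the precision: 3 UMIs were taken as the floor.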

Additional observations from a re-analysis of the deposited data

Results flagged for a closer look

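Some genes differed in opposite directions in different segments. The values are log2 ratios of the levels of 2 groups of cells in the same library, and the differences between segments were not tested. H2-K1 in T cells over enterocytes was 0.31, -0.43 and -0.19 in duodenum, jejunum and ileum. The duodenal value rests on 34 T cells. Levels count all UMIs, and the median mitochondrial share in the duodenum was 4.57% in T cells and 28.9% in enterocytes. The part of that share in the ratio was not tested. Tap1 in early enterocytes over enterocytes was -0.28 in the duodenum and 0.36 in the ileum. H2-Q10 gave the most such cases. In zone 5 over zone 1 it was 0.62, 0.76 and -2.11 in these segments. In T cells over enterocytes it was -2.29 in the jejunum and 1.40 in the ileum. In early enterocytes over enterocytes it was -1.23, -2.36 and 0.87 from duodenum to ileum. Of the H2-Q10 ratios, that of the ileal T cells rests on 113 UMIs.

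The barcodes above the mitochondrial limit, which entered no comparison, also held class I RNA. They numbered 5129, 3689 and 1291 from duodenum to ileum, and in each library 9 of the 9 genes stood above a floor of 3 UMIs. Their H2-K1 level was 15.4, 22.8 and 7.24 per 10000 UMIs and their H2-Q10 level 0.194, 0.735 and 0.0702, so that both kept the jejunum as the highest segment.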

How the results depend on the processing

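Class and zone comparisons set sums of the same library beside each other, with the library as the block of the fits. Segments could not be paired by replicate number, because each has 1 library. Of 72 calls of the 9 genes, 49 kept their direction and their side of the threshold under each alternative run, and of 1349 alternative fold changes 1232 did, with 70 losing the call, 14 gaining one and 33 changing sign. Of the 33, only Tap1 in tuft cells had been called. Counts of genes called moved with thinning to 800 UMIs, which left 5 genes testable in the class fits: 4 in T cells, 4 in B cells, and 5 each in goblet, enteroendocrine and ISC/proliferating cells. Without the library block 4 genes were called between zones 5 and 1.

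Changes of sign were as follows, and their cause was not tested. For H2-D1 in T cells the difference was 0.19 with DESeq2 size factors and in the DESeq2 test, 0.81 without TMM, 0.42 thinned and 0.0044 with sums of at least 3 cells. In tuft cells it was -0.47 without cells that held a UMI of a lymphocyte marker, most of them through Ptprc. Without TMM it was 0.0035 for Tap1 in tuft cells, 0.064 for Tap1 in early enterocytes, -0.12 for H2-Q10 between zones 5 and 1, and -0.17, -0.38 and -0.050 for B2m, H2-Q1 and H2-Q2 between zones 5 and 3. For Nlrc5 in tuft cells it was 0.031 with DESeq2 size factors, 0.39 without TMM and 0.039 in the DESeq2 test, and between zones 3 and 1 -0.39 with enterocytes alone. For H2-T3 in early enterocytes it was 0.043 with DESeq2 size factors, 0.32 without TMM, 0.046 in the DESeq2 test, 0.050 with sums of at least 3 cells and 0.033 at no more than 20% mitochondrial UMIs. For Tap1 between zones 3 and 1 it was 0.13 at no more than 20% mitochondrial UMIs and 0.099 with tip landmarks alone. Between zones 5 and 3, H2-Q10 was 0.22 with bottom landmarks alone, and H2-Q1 -0.0063 thinned and -0.080 with bottom landmarks alone.

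With 1 library left out, sign changed within the ranges -0.27 (without the duodenum) to 0.14 (without the ileum) for H2-D1 in T cells, -1.02 (duodenum) to 0.068 (ileum) for Nlrc5 in tuft cells, -6.12 (ileum) to 0.22 (duodenum) for Nlrc5 in enteroendocrine cells, -0.23 (jejunum) to 0.11 (duodenum) with 0.0076 (ileum) for H2-T3 in early enterocytes, -0.055 (jejunum) to 1.24 (ileum) for H2-Q10 between zones 5 and 1, and -0.15 (duodenum) to 0.045 (jejunum) for Tap1 between zones 3 and 1.

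Without integration no cluster was named goblet, so that this setting has no goblet value. Depth limited Nlrc5 most, with 4 to 21 UMIs a zone. Among segments, H2-T3 was lowest in the jejunum, not the ileum, with the mean over cells, and over all barcodes B2m was highest in the jejunum and Nlrc5 in the ileum, not the duodenum.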

Other observations

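Of the unnamed cells, 882 formed a cluster led by Gm26917, Fgf15 and Fabp6, which entered no comparison. Its H2-T3 level was 1.98, 1.66 and 1.498 UMIs per 10000 in duodenum, jejunum and ileum.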
